A study of Mus musculus with 15 samples.

Results

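Wild-type mouse bone marrow depleted of lineage-marked cells was compared with unseparated wild-type bone marrow by bulk RNA sequencing. The comparison used 8 of the 15 samples of the study: 4 samples labelled normal, wild type, whole marrow and 4 labelled normal, wild type, lineage negative. Members were chosen by the sample labels alone. The genes compared were the 14149 protein-coding genes, of 20456 in the table, whose deposited value was at least 10 in at least 4 of the 15 columns. The other 7 samples, leukaemic marrow of NUP98-NSD1/FLT3-ITD mice, entered that filter and otherwise only alternatives that scaled or fitted all 15 columns together. Strain, age and sex are not given in the labels, and neither are the antibodies of the lineage depletion, the purity of the depleted cells or whether a sample is 1 animal or a pool. Nothing states that samples of a group came from separate animals, so the p-values below measure the spread between samples, which may be technical. The comparison asks which transcripts of normal marrow lie in the cells that lineage depletion removes and which lie in the cells that it leaves.

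Bone marrow makes every blood lineage from a small pool of stem and progenitor cells. As these cells mature they lose the receptor Kit and gain surface proteins of a single lineage, such as Cd3 on T cells, Ly6g on neutrophils and CD11b on myeloid cells. Lineage depletion binds such proteins with antibodies and removes the cells that carry them, which leaves stem cells, multipotent and committed progenitors, and any mature cell that the antibodies do not bind.

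Values are the deposited normalized counts rescaled with TMM factors (trimmed mean of M values), which assumes that most genes do not differ. They are called normalised counts here, replicates are always given in the order 1 to 4, and errors are standard deviations over 4 samples. A difference is lineage-negative minus whole marrow on the log2(value + 1) scale, which understates changes of low genes. A gene was called higher or lower at an adjusted p under 0.05 (limma, Benjamini-Hochberg over 14149 genes) together with an absolute log2 difference of at least 1. In bulk samples, fewer cells of a type and less RNA per cell cannot be told apart.

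The promoters of 5 genes are shown because those genes mark the contrasts described below: red cell genes that fell, a neutrophil gene that fell, and an early granule gene and a basophil gene that rose. Each is the 250 bases before the RefSeq transcription start on build GRCm38.p6, 5′ to 3′ on the strand of the gene. Hbb-bs (beta-globin) is at chr7:103827929-103828178, minus strand, and Alas2 (the erythroid first enzyme of heme synthesis) at chrX:150547167-150547416, plus strand. S100a8 (a calcium-binding neutrophil protein) is at chr3:90668821-90669070, plus strand, Mpo (myeloperoxidase) at chr11:87793534-87793783, plus strand, and Prss34 (a basophil protease) at chr17:25298144-25298393, plus strand. Capitals mark matches, on either strand, to 5 sets of letters. Those of GATA factors were AGATAA together with its variants TGATAA for the first base and AGATAG for the last base, and TGATAG for both bases. KLF1 had the letters CCACACCC, PU.1 the letters GAGGAAGT, C/EBP factors the letters TTGCNNAA and the TATA box the letters TATAAA.
Hbb-bs: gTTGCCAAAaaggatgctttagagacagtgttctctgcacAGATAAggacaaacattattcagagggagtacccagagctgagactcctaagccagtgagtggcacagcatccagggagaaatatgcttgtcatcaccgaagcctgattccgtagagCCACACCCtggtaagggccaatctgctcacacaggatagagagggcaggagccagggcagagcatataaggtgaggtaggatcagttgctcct
Alas2: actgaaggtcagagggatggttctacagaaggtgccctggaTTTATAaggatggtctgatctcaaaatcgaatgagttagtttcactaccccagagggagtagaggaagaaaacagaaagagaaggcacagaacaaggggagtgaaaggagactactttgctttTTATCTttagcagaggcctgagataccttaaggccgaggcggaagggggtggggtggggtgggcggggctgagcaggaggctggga
S100a8: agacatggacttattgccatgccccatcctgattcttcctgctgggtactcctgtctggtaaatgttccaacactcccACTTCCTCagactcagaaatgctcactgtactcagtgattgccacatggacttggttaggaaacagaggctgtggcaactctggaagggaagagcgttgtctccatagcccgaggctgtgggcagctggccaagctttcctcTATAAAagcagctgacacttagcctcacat
Mpo: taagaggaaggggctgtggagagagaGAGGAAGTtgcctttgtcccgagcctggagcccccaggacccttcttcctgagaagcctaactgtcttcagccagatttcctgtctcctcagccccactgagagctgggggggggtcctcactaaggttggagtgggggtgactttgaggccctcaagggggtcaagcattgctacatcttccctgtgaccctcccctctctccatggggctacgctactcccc
Prss34: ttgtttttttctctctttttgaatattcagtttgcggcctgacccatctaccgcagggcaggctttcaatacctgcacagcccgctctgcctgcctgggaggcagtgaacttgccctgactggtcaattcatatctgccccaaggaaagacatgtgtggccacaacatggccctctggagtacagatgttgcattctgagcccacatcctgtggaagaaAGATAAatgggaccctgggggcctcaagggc

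GATA letters stood before Hbb-bs and Alas2, which fell, and before Prss34, which rose. PU.1 letters stood before S100a8, which fell, and before Mpo, which rose. In windows of 300 bases, the 250 before and the 50 after the start, 23.5% of the 11194 tested genes with a RefSeq window held GATA letters. The shares were 13 of 19 red cell genes (68.4%), 11 of 16 erythroid progenitor genes (68.8%), 10 of 16 basophil and mast cell genes (62.5%) and 0 of 11 primary granule genes. PU.1 letters were in 3.86% of all windows, in 4 of 11 primary granule genes (36.4%), in 4 of 20 secondary and tertiary granule genes (20%) and in 0 of 19 red cell genes. C/EBP letters were in 10.7% of all windows, 3 of 11 primary granule genes (27.3%), 6 of 20 secondary and tertiary granule genes (30%) and 8 of 29 mature neutrophil genes (27.6%). KLF1 letters were in 4.52% of all windows and in 2 of 19 red cell genes, and TATA letters in 9.85% and in 4 of 19. GATA letters were also in 13 of 29 mature neutrophil genes (44.8%) and 4 of 7 MHC class II genes (57.1%). PU.1 letters were in 4 of 8 lineage antibody antigens (50%) and in 0 of 13 myeloid transcription factors. C/EBP letters were in 5 of 16 basophil and mast cell genes (31.2%) and 4 of 13 plasma cell genes (30.8%). They were in 0 of 13 macrophage genes. High shares thus also occurred in lists of other lineages, and no share was tested. A match describes letters in a window and is not a binding site.

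Genes of mature red cells, neutrophils, macrophages and B cells were lower in lineage-negative marrow. Genes of ribosome production were higher, as were part of the genes of early progenitors and of basophils. Hbb-bs fell 204-fold (608-fold without lineage-negative replicate 1) and S100a8 fell 225-fold, while Kit rose 5.50-fold, Cd34 7.16-fold and Myc 7.68-fold. In all, 2102 genes were called higher (14.9% of those tested) and 3452 lower (24.4%), together 39.3%, and the median difference of all genes was 0.05. At an adjusted p under 0.05 alone, with no minimum difference, 34.4% were higher and 33.2% lower. Groups did not overlap for 30.6% of the tested genes with lineage-negative marrow higher and for 30.4% with it lower. The balance of calls rested on the scaling: 37.8% of the calls were higher here, against 67.3% with the values as deposited (5308 higher and 2577 lower), 52.7% with quantile normalization and 48.6% with TMM factors from all genes. The median of all genes was 0.67, 0.20 and 0.24 on those scales, so the differences below are to be read against it. Without both libraries numbered 1, which stand apart as given next, 1882 genes were higher and 3558 lower, a setting chosen after seeing the data. The first principal component, with 85% of the variance, separated the groups.

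**Figure D1:**
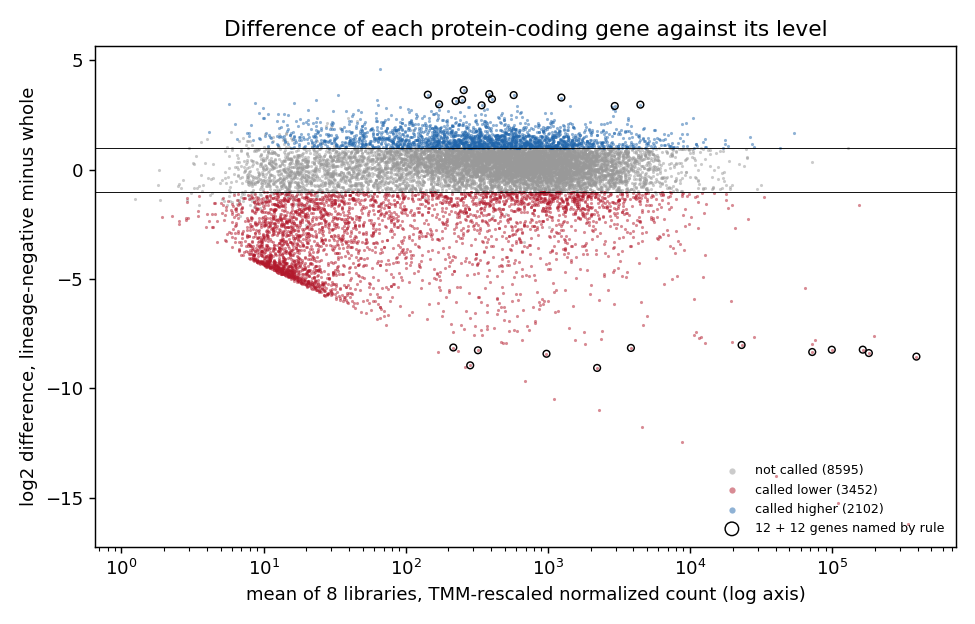
Log2 difference (lineage-negative minus whole marrow, y axis) of each protein-coding gene against its mean over 8 libraries (x axis, log scale). Blue points are the 2102 genes called higher, red points the 3452 called lower and grey points the rest. Circles mark the 24 genes named by rule. The decreases reach further from 0 than the increases, and a dense band of red points runs along the lower left edge, at low levels.

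The libraries differed in ways that bear on these counts. Whole marrow libraries were shallower, at an estimated 11.4 to 17.2 M reads (M for mega) against 20.3 to 28.1 M. The 1452 genes of olfactory and vomeronasal receptors, which blood cells are not known to use, had a mean of 25.4, 9.38, 9.88 and 7.79 normalised counts in whole marrow and 0.301 to 0.408 in lineage-negative marrow (exact permutation test over 70 splits, two-sided, p = 0.0286, the smallest possible with 4 against 4). These genes give a background level here. It was higher in every whole marrow library than in any lineage-negative library, and highest in whole marrow replicate 1. Of the 3452 lower calls, 2314 (67.0%) had a whole marrow level per exonic kilobase above the 95th percentile of these receptor genes, 5.69, and 1129 (32.7%) lay at or below it. By its definition that percentile leaves some receptor genes above it. The tested genes themselves include 235 receptor genes, and many of them are among the lower calls. The 24.4% of all genes called lower, used as the comparison below, includes them. Of the lower calls, 621 were at or under the floor of 3 reads in all 4 lineage-negative libraries. Lineage-negative replicate 1 stood apart on the second component, which held 4.54% of the variance. Mitochondrial genes made up 1.71% of its total against 3.94% to 4.08% in the other lineage-negative libraries, and 1.72% to 1.87% in whole marrow. The part of depth and mitochondrial share in the differences was not tested. With the receptor median per exonic kilobase subtracted, 2343 genes were higher and 2681 lower.

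**Figure D2:**
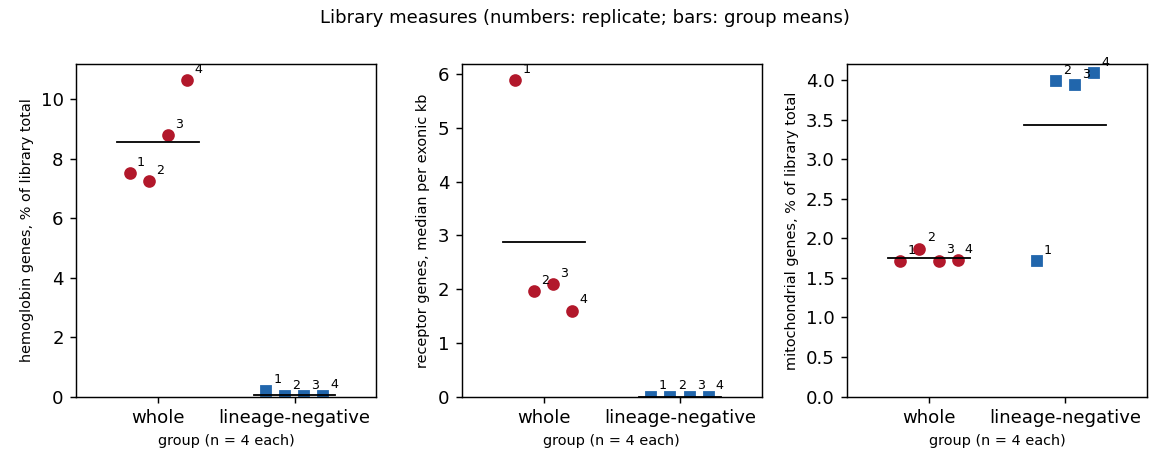
Each point is 1 library, numbered by replicate, and bars are means of 4. The panels show hemoglobin genes as a percent of the library total, the median of the receptor genes per exonic kilobase, and mitochondrial genes as a percent of the library total. The groups do not overlap in the first and the middle panel, whole marrow replicate 1 is high in the middle panel, and lineage-negative replicate 1 lies at the level of the whole marrow libraries in the mitochondrial panel.

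The antigens that lineage antibodies usually bind fell. Of 11 such genes 10 were lower and none higher, beside 24.4% and 14.9% of all genes tested, and the list median was −3.03. Their summed level was 53260 to 60823 normalised counts in whole marrow and 8960.5 to 12726 in lineage-negative marrow. Ly6g, the neutrophil antigen, had 2705, 4432, 2721 and 2547 in whole marrow and 46.2, 2.07, 19.9 and 10.1 in lineage-negative marrow. Itgam (CD11b of myeloid cells) had 15578, 16244, 16148 and 14279 against 1008, 381, 435 and 464. For both genes every depleted library lay below every whole marrow library. Their log2 differences were −7.80 (SE 0.63, adjusted p = 1.16e-06) and −4.88 (SE 0.25, adjusted p = 6.37e-08). Cd4 fell 7.74-fold and Cd3e, a subunit of the T cell receptor complex, 7.07-fold. Ptprc, whose B220 form is the antigen and which all white cells carry, fell 4.53-fold. Cd5 was called lower at −1.17 although its groups overlapped, and Ly6c1 was not called at −0.13, with at most 16.5 normalised counts in any library. Ly6c2 fell by 1.05. Cd5 was not called without lineage-negative replicate 2, and Ly6c2 was not called without lineage-negative replicate 3 or whole marrow replicate 2, at −0.99, −0.95 and −0.95. None of the 11 antigens was listed at 0 in any depleted library.

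**Figure D3:**
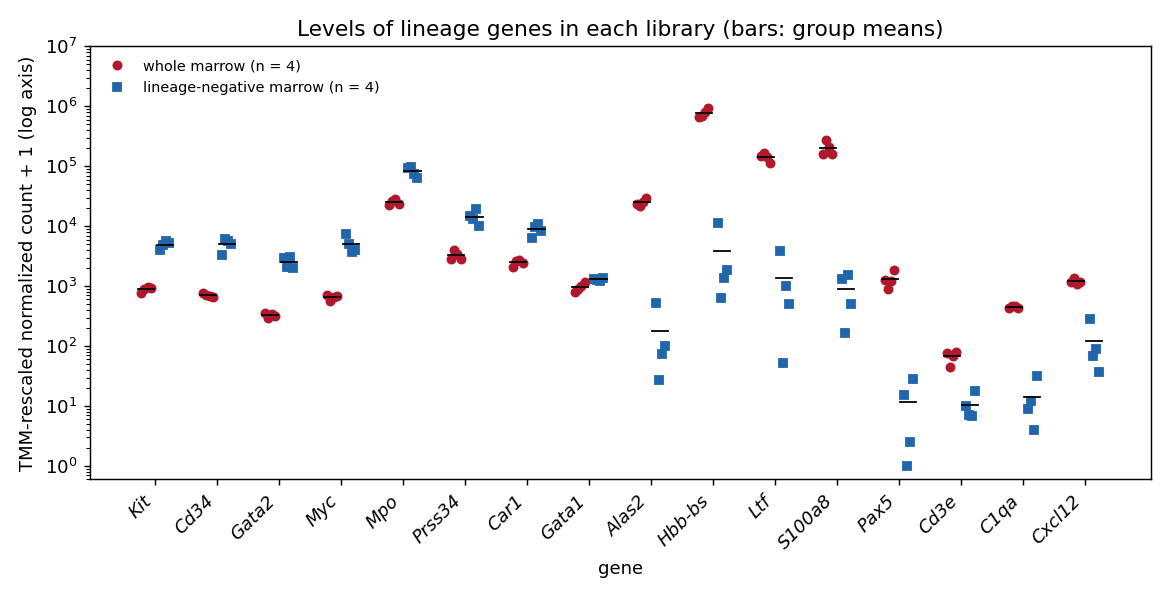
Normalised count + 1 (y axis, log scale) of 16 lineage genes in each library, whole marrow as red circles and lineage-negative marrow as blue squares, with replicates 1 to 4 from left to right and bars at the means. Kit to Car1 are higher in every lineage-negative library, and Gata1 is higher in every lineage-negative library by a log2 difference of only 0.45. Alas2 to Cxcl12 are lower in every lineage-negative library, with replicate 1 the highest of the 4 for Alas2, Hbb-bs, Ltf and Cxcl12.

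Surface genes of stem and progenitor cells rose in part. Of 20 genes 9 were higher (45%, beside 14.9% of all genes), 3 were lower (15%, beside 24.4%) and 8 were not called. The list median was 1.12. Kit (the stem cell factor receptor, ENSMUSG00000005672, chromosome 5, 75735576 to 75817382 in the table, whose build is not named) had 758, 893, 974 and 941 normalised counts in whole marrow and 4016, 4839.8, 5581 and 5162 in lineage-negative marrow. Cd34, a sialomucin of progenitors, had 760, 716, 672 and 666 against 3276, 6132, 5704 and 5032. Both were higher in every depleted library than in any whole marrow library. Kit rose 5.50-fold, by 2.45 (SE 0.13, adjusted p = 8.07e-08) on the log2 scale, and Cd34 rose 7.16-fold, by 2.80 (SE 0.18, adjusted p = 2.30e-07). Replicate 1 was the lowest of the depleted libraries for both genes. Those higher included Eng (endoglin), Cd27, Flt3 (the FLT3 ligand receptor), Tie1, Itga2b and Cd93, which rose by 2.39, 2.29, 2.06, 1.92, 1.73 and 1.34 on the log2 scale.

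Ly6a, which encodes the stem cell antigen Sca-1, went the other way, with 142, 296, 242 and 159 in whole marrow against 24.2, 45.6, 73.0 and 57.6 in lineage-negative marrow. Sca-1 is known on stem cells and also on mature lymphocytes and endothelium. Prom1 (prominin-1) had 830.1, 1141, 1183 and 827 against 160.4, 93.2, 128 and 125, and the tetraspanin Cd9 fell 5.31-fold. In all 3 genes the groups did not overlap, and the log2 differences were −2.09 (SE 0.35, adjusted p = 2.33e-04) for Ly6a and −2.97 (SE 0.19, adjusted p = 2.62e-07) for Prom1. Markers used to tell long-term stem cells apart were not called in the main comparison: Slamf1 was at −0.36, Cd48 at 0.13 and Procr at 1.37, with overlapping groups in each. Procr had a mean of 21.5 ± 6.72 in lineage-negative marrow, and its whole marrow level lay within the receptor background. Procr was called higher in 9 of the alternatives, at 1.5 (voom) to 3.89 (receptor mean subtracted), with 1.84 without whole marrow replicate 1, and it stood at 0.72 without replicate 3.

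Stem and progenitor transcription factors rose in 14 of 25 genes (56%, beside 14.9% of all genes) and fell in none (beside 24.4%). Their median was 1.12. Gata2, a zinc finger factor of stem, mast cell and early erythroid cells, had 361, 298, 341 and 322 against 2977, 2050.4, 3033 and 1994. Meis1, a homeobox factor, had 242, 196, 179 and 188 against 580.0, 894, 1052 and 882. The groups did not overlap for either gene. Gata2 rose by 2.90 (SE 0.16, adjusted p = 8.57e-08) and Meis1 by 2.05 (SE 0.19, adjusted p = 2.39e-06). Mycn rose by 2.12, Hoxa9 by 2.05, Myb by 1.69 and Hlf by 1.38. Runx1 rose by 1.05, and fell short of the threshold, at 0.93 to 0.96, without lineage-negative replicate 1, 3 or 4 or whole marrow replicate 1. Tal1, Lyl1 and Erg, factors of stem cells, of the erythroid line or of megakaryocytes, were not called, at −0.31, 0.21 and 0.23.

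Genes of ribosome production rose. Of 30 genes of ribosome biogenesis and Myc, 28 were called higher (93.3%, beside 14.9% of all genes) and none lower (beside 24.4%). Their median was 1.82, and their summed level was 29402 to 36988 in whole marrow against 97054 to 116350 in lineage-negative marrow. Myc, the growth factor-driven regulator of these genes, had 719.6, 564, 669 and 678 normalised counts in whole marrow and 7369, 5108, 3701 and 4012 in lineage-negative marrow, a rise of 2.89 (SE 0.19, adjusted p = 3.51e-07). Ncl (nucleolin, a nucleolar RNA-binding protein) had 2713, 3151, 4389 and 3497 against 23216, 14983, 12545 and 11104. Every depleted library lay above every whole marrow library for both genes, and replicate 1 was the highest. Polr1b (a subunit of RNA polymerase I), Nop56 and Fbl (both of the enzyme complex that methylates ribosomal RNA) and Npm1 rose by 2.28, 1.82, 1.68 and 1.63. Odc1, the first enzyme of polyamine synthesis, was not called at −0.36.

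Few cell division genes were called. Among 28 DNA replication genes 1 was called higher (3.57%, beside 14.9% of all genes), Mcm6 at 1.09, and none lower (beside 24.4%). Mcm6 was at 0.999, not called, without lineage-negative replicate 1. The list median was 0.57. In 17 of the 28 (beside 30.6% of all genes) every depleted library lay above every whole marrow library, as for Mcm2 at 0.78. Called higher were 17 with the values as deposited, 7 with TMM factors from all genes, 3 with quantile normalization and 0 with TMM factors over all 15 columns. Among 26 mitosis genes 1 was called lower (3.85%, beside 24.4% of all genes), Ube2c at −1.30, and none higher (beside 14.9%). The median was −0.41, or 0.22 as deposited. In 10 of the 26 (beside 30.4% of all genes) every depleted library lay below every whole marrow library. Mki67, the marker of cycling cells, had 36991, 30872, 39436 and 48185 against 32016, 17476, 20714 and 26348, which overlapped.

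Red cell genes fell. All 27 tested were called lower (beside 24.4% of all genes), with non-overlapping groups in each (beside 30.4%), and the median was −3.66. The 4 adult hemoglobin genes made up 7.51%, 7.24%, 8.80% and 10.7% of the whole marrow totals and 0.203%, 0.0119%, 0.0240% and 0.0345% of the lineage-negative totals. The means were 8.55% ± 1.56 and 0.0684% ± 0.0904 (SD, n = 4 each; exact permutation test, two-sided, p = 0.0286, the smallest possible). Lineage-negative replicate 1 held the most hemoglobin of its group. Hbb-bs (ENSMUSG00000052305, chromosome 7, 103475741 to 103477303 in the table) had 663730, 694020, 811200 and 952130 in whole marrow and 11461, 625, 1385 and 1837 in lineage-negative marrow. Alas2 had 23075, 22100, 25566 and 29987 against 519.5, 26.5, 73.2 and 101, and Slc4a1, the anion exchanger of the red cell membrane, had 34109, 32727, 40095 and 46317 against 2285, 208, 405 and 668. Alas2 fell by 7.94 (SE 0.65, adjusted p = 1.26e-06) and Slc4a1 fell by 5.98 (SE 0.55, adjusted p = 2.56e-06) on the log2 scale. Rsad2, an antiviral enzyme that interferon induces and that was listed with both red cell and interferon genes, fell by 6.07. Reads of Hba-a1 and Hba-a2, and of Hbb-bs and Hbb-bt, come from near-identical copies, so their division between members is uncertain.

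Of 23 erythroid progenitor genes 5 were higher (21.7%, beside 14.9% of all genes), 10 lower (43.5%, beside 24.4%) and 8 not called. Their median was −0.61. With the values as deposited 6 were higher and 4 lower, with a median of 0.01. Car1 (carbonic anhydrase 1) had 2125, 2680.5, 2736 and 2442 against 6374, 9876, 10759 and 8378, and Tfr2 (transferrin receptor 2) had 217, 196, 258 and 307 against 1067, 1256, 1284 and 1127. Both were higher in every depleted library, by 1.80 (SE 0.17, adjusted p = 3.24e-06) and 2.29 (SE 0.15, adjusted p = 3.22e-07), and the call of Car1 was lost with all 15 libraries in the fit (1.68). Sphk1, a sphingosine kinase, rose by 1.66 and Mt2, a metallothionein, by 2.74. Sox6, a factor of erythroid maturation, had 2064, 2004, 2704 and 4045 against 333, 120.2, 264 and 269 and fell by 3.48 (SE 0.30, adjusted p = 1.94e-06). Hemgn (hemogen), Rhd and Tfrc (the main transferrin receptor) fell, with differences of −2.78, −2.01 and −1.35. The regulators at the centre of the lineage were not called: Gata1 was at 0.45, with every depleted library the higher (1.08 and called as deposited), Klf1 at −0.33 and Epor, the erythropoietin receptor, at −0.15. Of 16 genes of heme synthesis and transport 9 fell (56.2%, beside 24.4% of all genes). Only 1 rose (6.25%, beside 14.9%), the ferrireductase Steap3, by 1.28. Beside Alas2 the falls included the mitochondrial iron importer Slc25a37 at −3.66 and ferrochelatase, Fech, at −3.03, while Alad was not called at −0.66.

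**Figure D4:**
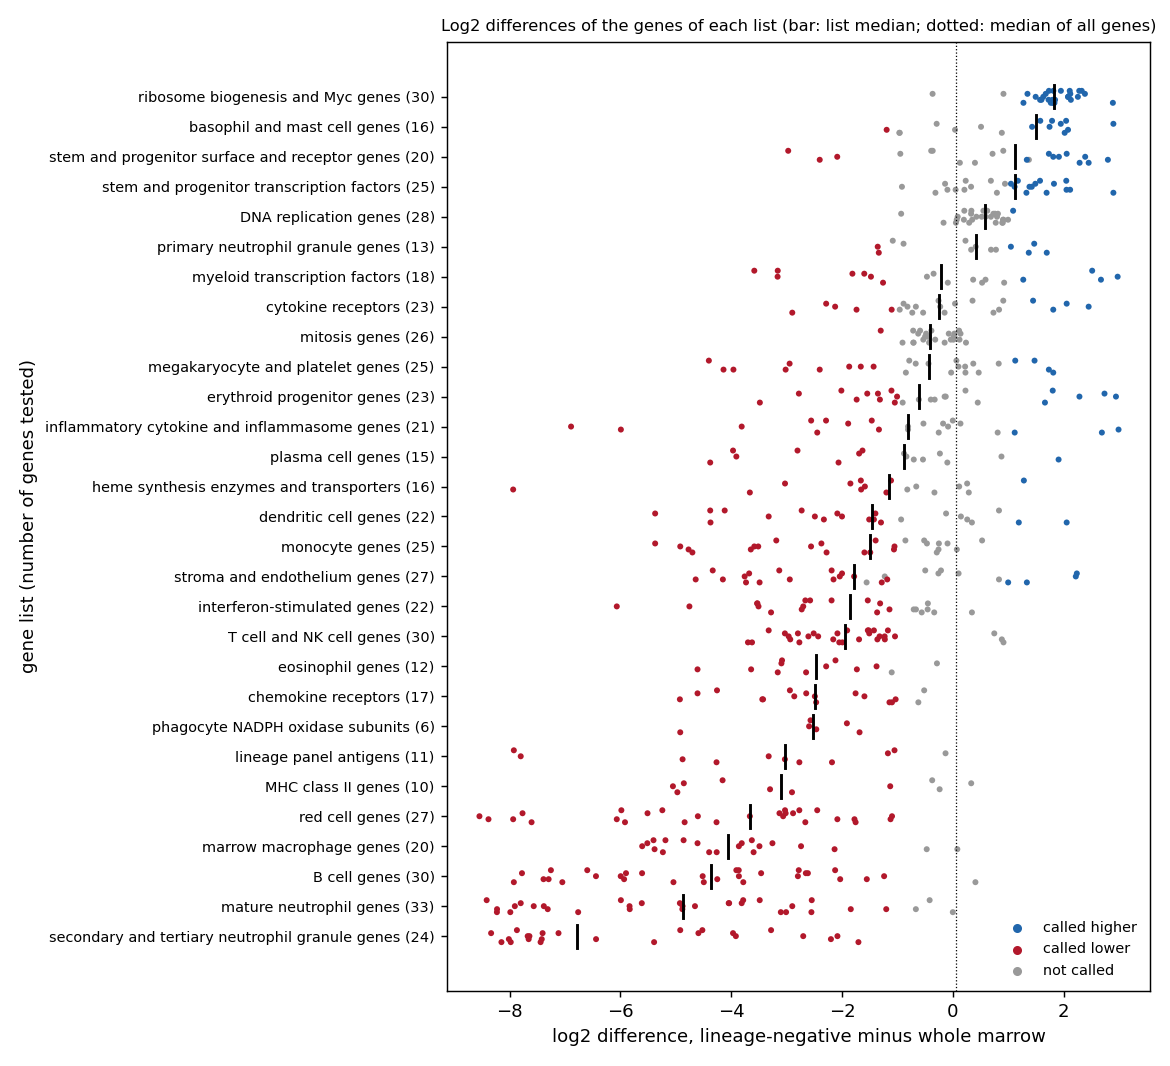
Log2 difference (x axis) of every tested gene in 29 lists (y axis, with the number of genes tested), blue for genes called higher, red for lower and grey for the rest. Black bars are list medians, from −6.78 for secondary and tertiary granules to 1.82 for ribosome biogenesis, and the dotted line is the median of all genes, 0.05.

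Neutrophil genes of different maturation stages were counted apart. Primary granule proteins are made by promyelocytes, secondary and tertiary granule proteins by later precursors, and receptors such as Cxcr2 by nearly mature cells. Of 13 primary granule genes 4 were higher (30.8%, beside 14.9% of all genes), 2 lower (15.4%, beside 24.4%) and 7 not called. Their median was 0.41. With the values as deposited 7 were higher and 0 lower, with quantile normalization 6 and 2, and with TMM factors over all 15 columns 3 and 3. All 24 secondary and tertiary granule genes were lower (beside 24.4% of all genes), with a median of −6.78. Of 33 mature neutrophil genes 30 were lower (90.9%), with a median of −4.88. The summed level of the secondary and tertiary granule genes was 609820 to 905930 in whole marrow and 10051 to 26110 in lineage-negative marrow.

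Mpo (ENSMUSG00000009350, chromosome 11, 87684407 to 87695239) had 22967, 26044, 28551 and 23203 normalised counts in whole marrow and 93904, 97294, 73780 and 64905 in lineage-negative marrow, with no overlap. It rose 3.27-fold, by 1.70 (SE 0.24, adjusted p = 6.98e-05). Ctsg (cathepsin G), the chaperone Calr and Prtn3 (proteinase 3) rose by 1.47, 1.37 and 1.05. Prtn3 fell short of the threshold, at 0.83 to 0.98, without lineage-negative replicate 1 or 2 or whole marrow replicate 1 or 4. Elane (neutrophil elastase) had 3909.6, 6774, 6639.5 and 5107 against 14451, 9381, 7614 and 5904, which overlapped, and was not called at 0.69 (1.32 and called as deposited). Ctsc, the protease that activates these enzymes, fell by 1.34.

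Ltf (lactoferrin, of secondary granules) had 149500, 163360, 143740 and 114580 in whole marrow and 3824, 50.4, 991 and 507 in lineage-negative marrow. S100a8 had 158330, 270490, 206810 and 157440 against 1342, 164, 1512 and 513, and the chemokine receptor Cxcr2 had 5866, 7473, 7899.8 and 6143 against 246, 182, 309.9 and 176. None of the 3 overlapped between groups, and lineage-negative replicate 2 held the least Ltf and S100a8. Their differences were −7.98 (SE 0.95, adjusted p = 1.84e-05), −8.23 (SE 0.57, adjusted p = 4.15e-07) and −4.93 (SE 0.18, adjusted p = 1.68e-08). Lcn2 (lipocalin 2), Mmp8 and Mmp9 (matrix metalloproteinases) and Chil3 fell, with differences of −7.64, −7.44, −7.66 and −7.87. Csf3r, the G-CSF receptor, which progenitors also carry, fell 7.47-fold. All 6 subunits of the phagocyte NADPH oxidase were lower (beside 24.4% of all genes). They ran from Cybb (gp91phox) at −4.92 and Ncf1 at −2.59 to Rac2 at −1.68. Stfa1 and Stfa3 were at or under the floor in every lineage-negative library, and with both set to that floor the mature neutrophil median was −4.82. Members of the stefin A family share reads.

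Monocyte genes were lower in 16 of 25 (64%, beside 24.4% of all genes) and higher in none (beside 14.9%), with a median of −1.49. Ccr2, the receptor that brings monocytes out of marrow, fell by 1.59, and Fcgr1 fell by 3.65. Csf1r, F13a1 and Ly86 were not called, at −0.26, −0.09 and −0.25, and F13a1 (a clotting factor chain) had 8288, 9640, 9998 and 7845 against 9612, 8956, 6866 and 8152, which overlapped. Macrophage genes were lower in 18 of 20 (90%, beside 24.4%) and higher in none (beside 14.9%), with a median of −4.06. Ccr3, counted among the lower genes of this list, is also in the eosinophil and chemokine receptor lists. C1qa, a complement chain of tissue macrophages, had 431, 462, 468 and 432 against 7.82, 11.05, 2.95 and 30.9. Every depleted library was lower, replicate 4 had the most of the 4, and the difference was −5.38 (SE 0.49, adjusted p = 2.48e-06). Vcam1, Hmox1 (heme oxygenase 1) and Spic, all of iron-recycling macrophages, fell, with differences of −3.60, −4.26 and −3.63, and Apoe was not called at 0.08.

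Among dendritic cell genes 14 of 22 were lower (63.6%, beside 24.4% of all genes) and 2 higher (9.09%, beside 14.9%), with a median of −1.47. Siglech, of plasmacytoid dendritic cells, fell by 4.12, while their regulator Tcf4 was not called at 0.26. Flt3 and Zbtb46, a factor of conventional dendritic cells, rose by 2.06 and 1.19. Without lineage-negative replicate 4, Zbtb46 was at 0.997 and not called. Clec9a was not called at 0.15. Batf3, called lower at −1.30, had a whole marrow level within the receptor background, and its direction turned with quantile normalization, at 1.25. MHC class II genes were lower in 7 of 10 (70%, beside 24.4%) and higher in none (beside 14.9%), with a median of −3.10. Cd74, the invariant chain, had 5121, 6595, 6660.4 and 7099 against 380.1, 55.2, 137 and 767, with replicates 1 and 4 highest among the depleted libraries. H2-Aa and the class II regulator Ciita fell, with differences of −4.97 and −4.16, and H2-Oa was not called at −0.24.

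B cell genes were lower in 29 of 30 (96.7%, beside 24.4% of all genes) and higher in none (beside 14.9%). Their median was −4.37. Pax5, which fixes B cell identity, had 1249, 879.9, 1204 and 1851 in whole marrow and 14.2, 0, 1.48 and 27.2 in lineage-negative marrow, where replicates 2 and 3 were at or below the floor of 3 reads. Rag1, of the recombinase that joins antigen receptor genes, had 1412, 1410, 1185 and 2556 against 36.9, 37.98, 34.7 and 19.2. Neither gene overlapped between groups, and the differences were −7.78 (SE 0.85, adjusted p = 9.11e-06) and −5.61 (SE 0.27, adjusted p = 4.86e-08). Ebf1 and Igll1, a surrogate light chain gene of B cell precursors, fell, with differences of −6.60 and −6.44. The exception was Dntt, terminal transferase, which early lymphoid progenitors also make. Dntt had 817, 458, 483 and 693 against 967, 925, 804 and 542, which overlapped, and was not called at 0.41. Of 15 plasma cell genes 7 were lower (46.7%, beside 24.4% of all genes), and 4 were with quantile normalization. Only 1 was higher (6.67%, beside 14.9%), the chaperone Fkbp11, by 1.91. Jchain fell by 2.06 and Irf4 fell by 4.38, while the secretory regulator Xbp1 was not called at −0.54.

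T cell and NK cell genes were lower in 27 of 30 (90%, beside 24.4% of all genes) and higher in none (beside 14.9%). Their summed level was 3922 to 4368 in whole marrow and 2084 to 2392 in lineage-negative marrow, with a median difference of −1.95. Cd3e had 75.8, 43.7, 68.0 and 80.4 against 9.24, 6.22, 5.90 and 16.5 and fell by 2.77 (SE 0.36, adjusted p = 3.62e-05). Cd8a, Zap70 and Il2rb fell, with differences of −3.32, −1.51 and −2.05. Nkg7, Gzmb and Lat, granule and signalling genes that basophils or mast cells are also known to make, were higher in every depleted library but were not called, at 0.92, 0.89 and 0.75. Which cells held these transcripts was not tested. Gzmb was called at 1.01 without whole marrow replicate 1 or 3. These counts moved with the scaling, to 3 higher and 18 lower with the values as deposited.

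Genes of basophils and mast cells rose. Of 16 tested 9 were higher (56.2%, beside 14.9% of all genes) and 1 lower (6.25%, beside 24.4%), with a median of 1.51. Without lineage-negative replicate 2 or replicate 3, the lower genes were 3. Prss34 (ENSMUSG00000056399, chromosome 17, 25517368 to 25519139) had 2869.8, 4044, 3481 and 2880.3 normalised counts in whole marrow and 14665, 13152, 19178 and 10079 in lineage-negative marrow. Mcpt8, a basophil protease, had 1176, 1908, 1532 and 1404 against 6046, 5906, 8307 and 4417. The groups did not overlap for either gene, with replicate 3 the highest depleted library, and the rises were 2.08 (SE 0.20, adjusted p = 3.60e-06) and 2.02 (SE 0.20, adjusted p = 4.10e-06). Cpa3 (carboxypeptidase A3), Ms4a2 and Fcer1a (chains of the high-affinity IgE receptor) rose by 2.05, 1.95 and 1.43, and the call of Fcer1a was lost with all 15 libraries in the fit (1.31). Hdc, which makes histamine and is also made by other myeloid cells, fell by 1.19. Cma1, Mcpt4, Tpsab1 and Tpsb2, of connective tissue mast cells, did not pass the filter on low values.

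Eosinophil genes fell in 10 of 12 (83.3%, beside 24.4% of all genes) and rose in none (beside 14.9%). Their median was −2.47, and they varied widely among the depleted libraries. Prg2, the major basic protein, had 23629, 28364, 31437 and 27340 in whole marrow and 7435, 3706, 11078 and 15520 in lineage-negative marrow. Epx, eosinophil peroxidase, had 6240.1, 6370.5, 8833 and 7375 against 2266, 1271, 4413 and 9574, and replicate 4 of the depleted libraries exceeded every whole marrow library. Prg2 was called at −1.73 (SE 0.36, adjusted p = 0.00111), and Epx was not called at −1.10 (SE 0.47, adjusted p = 0.0577). Without lineage-negative replicate 4 Epx was called at −1.67, and without replicate 2 it was at −0.69. The chemokine receptor Ccr3, of mature eosinophils, fell by 4.61, at 14.9, 18.6, 20.7 and 11.7 in the depleted libraries. The ribonucleases Ear1, Ear2 and Ear6 fell, with differences of −3.09, −3.08 and −2.65, and they share sequence, so reads may be divided between them.

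Of 25 megakaryocyte and platelet genes 4 were higher (16%, beside 14.9% of all genes), 9 were lower (36%, beside 24.4%) and 12 were not called, with a median of −0.44 that was 0.17 with the values as deposited 0.08 with quantile normalization and 0.01 with the receptor mean subtracted. Itga2b (CD41) rose by 1.73 (SE 0.18, adjusted p = 6.20e-06) and Gp5 by 1.48. Ppbp, a platelet chemokine precursor, had 266, 589, 329 and 335 against 2.13, 33.8, 50.9 and 14.4 and fell by 4.40 (SE 0.70, adjusted p = 1.65e-04). Thbs1 (thrombospondin 1) and Tubb1 (the platelet tubulin) fell, with differences of −4.14 and −3.02. Pf4 and Vwf were not called, at 0.23 and 0.37, with overlapping groups.

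Marrow stroma and endothelium genes were lower in 16 of 27 (59.3%, beside 24.4% of all genes) and higher in 4 (14.8%, beside 14.9%). The list median was −1.78. With quantile normalization 13 were lower (median −0.78), and with the receptor median per exonic kilobase subtracted 12 were (median −0.89). The summed level of the list overlapped, at 5145.1 to 5449.8 in whole marrow and 3994.5 to 5257.9 in lineage-negative marrow. Cxcl12, the chemokine that retains progenitors, had 1158, 1376, 1085 and 1181 against 285, 68.4, 87.8 and 36.3, and Lepr, a marker of the perivascular cells that make it, had 238, 282, 205 and 199.6 against 29.1, 2.76, 11.1 and 4.27. Both were lower in every depleted library, with replicate 1 the highest of the 4 and differences of −3.73 (SE 0.46, adjusted p = 2.50e-05) and −4.64 (SE 0.54, adjusted p = 1.39e-05). Kitl, the ligand of Kit, fell by 3.76 and the endothelial cadherin Cdh5 fell by 4.33. By group means Cdh5 was 12.4-fold lower, or 112-fold without lineage-negative replicate 4. Pdgfrb, Tek, Plvap and Pecam1 rose by 2.24, 2.22, 1.34 and 1.00. With all 15 libraries in the fit the call of Plvap was lost (1.21). Tek and Pecam1 are known on stem cells too. Pecam1 fell short of the threshold, at 0.88 to 0.99, without any 1 of the lineage-negative libraries or whole marrow replicate 2 or 4. Nes and Pdgfra, called lower, had whole marrow levels within the receptor background. Col1a1, the main bone collagen, had 60.7, 50.8, 50.7 and 52.1 in whole marrow but 23.4, 566, 1.48 and 341 in the depleted libraries, where replicates 2 and 4 were high and replicate 3 was near 0, and was not called at 0.10.

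Of 18 myeloid transcription factors 4 were higher (22.2%, beside 14.9% of all genes) and 7 lower (38.9%, beside 24.4%), with a median of −0.22. With the values as deposited 7 were higher and 4 lower, with a median of 0.41. Cebpa, which opens the granulocyte path, rose by 1.27, while Cebpe, of its late steps, fell by 3.16. Spi1, which encodes PU.1, fell by 1.26, and Irf8, of monocyte and dendritic precursors, was not called at 0.59 (1.22 and called as deposited). The immediate early genes Jun and Fosb, which also respond to tissue handling, rose by 2.98 and 2.68. Of the same kind, Fos was at 0.93, Nr4a1 at 0.53, Klf4 at −0.47 and Junb at −0.35, none of them called. Fos was called without lineage-negative replicate 2 (1.02) or 4 (1.01). Jun had 1267, 722, 779 and 1142 against 13230, 5697, 7321 and 5687, and Egr1 had 135, 60.6, 99.2 and 159 against 2002, 297, 558 and 431. Lineage-negative replicate 1 was highest for both, and the groups did not overlap. Without that library the Egr1 difference was 1.87. Any handling that depletion adds and the change in cell makeup cannot be told apart in this design.

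Of 17 chemokine receptors 15 were lower (88.2%, beside 24.4% of all genes) and none higher (beside 14.9%), with a median of −2.49. Cxcr4, which holds cells in marrow, fell 2.09-fold, and its call was lost with the values as deposited (−0.47), with TMM factors from all genes (−0.90) and with quantile normalization (−0.97). Of 22 interferon-stimulated genes 15 were lower (68.2%, beside 24.4%) and none higher (beside 14.9%), with a median of −1.86. Those lower included Irf7 at −2.58 and Isg15 at −3.53. Among 23 cytokine receptors 4 were higher, among them Kit, Flt3 and Il3ra, and 5 were lower, which is 17.4% and 21.7% beside 14.9% and 24.4% of all genes, with a median of −0.26. As deposited 7 were higher and 4 lower, with a median of 0.37. Il3ra, the interleukin 3 receptor alpha chain, rose by 1.45, and Il7r and Csf2ra fell, with differences of −2.12 and −1.74. Without whole marrow replicate 1, 8 cytokine receptors were lower, and without both libraries numbered 1, 10 were. Of 21 inflammatory cytokine and inflammasome genes 3 were higher (14.3%, beside 14.9% of all genes) and 9 lower (42.9%, beside 24.4%). Il1b had 1025, 1765, 2705 and 1912 against 40.5, 9.67, 33.2 and 36.8, and its antagonist Il1rn fell by 6.89. The chemokines Ccl3 and Ccl4 went the other way, and Ccl3 had 163, 179, 145.3 and 138 against 1299.6, 814, 1425 and 696, a rise of 2.69 (SE 0.22, adjusted p = 1.30e-06).

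The rule for named genes took the 12 largest increases and the 12 largest decreases among called genes with a mean of at least 100 and groups that did not overlap. The increases, none of them in the neutrophil, erythroid or lymphoid lists except Atp1b2 of the erythroid progenitor list, ran from 3.64 to 2.92. The melanocortin receptor gene Mc5r rose by 3.64 (SE 0.22, adjusted p = 1.62e-07). Shank3, a synaptic scaffold gene, had 59.0, 35.5, 90.8 and 79.6 against 858, 527, 692 and 757, and Slc22a3, an organic cation transporter, had 96.1, 77.6, 121 and 96.8 against 884, 1189, 1243 and 896. Muc13, a membrane mucin, had 236, 212, 255 and 204 against 1719.8, 2633, 2614 and 2102, and Adgrg1, an adhesion receptor also called GPR56 and known on stem cells, had 729.7, 595, 637 and 785 against 6667, 4552, 5383 and 4329.6. Each was higher in every depleted library, 10.7-fold, 10.8-fold, 10.01-fold and 7.62-fold. The others were Scin (a gelsolin family protein), Mdga1, Slc45a3, Ankrd13b, Ccl4, Jun and Atp1b2 (a sodium pump subunit), at 3.43, 3.23, 3.20, 3.14, 2.99, 2.98 and 2.95.

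The 12 largest decreases by the rule were mostly neutrophil and red cell genes. Hbb-bs, Hba-a2, Ngp, S100a8, S100a9, Itgb2l, Camp and Fpr1 fell, with differences of −8.54, −8.38, −8.33, −8.23, −8.23, −8.15, −8.01 and −8.41. Apol11b and Apol11a, of the apolipoprotein L family, headed the list at −9.06 and −8.94. Apol11b had 3478, 4304, 4789 and 5152 in whole marrow and 44.8, 0.691, 5.90 and 7.47 in lineage-negative marrow, where replicate 1 was highest. Apol11a had 535, 663, 476 and 602 in whole marrow, was at or under the floor of 3 reads in all 4 lineage-negative libraries and was at least 284-fold lower. The secreted mucin gene Muc2 was likewise under the floor in the depleted libraries and had 755, 309, 368 and 298 in whole marrow, at least 216-fold lower. Whole marrow replicate 1 was highest for Muc2, then 3, 2 and 4, the same order as for the receptor genes. Its whole marrow level per exonic kilobase was 60.7, against 5.69 for the 95th percentile of those genes. The part of background in its values was not tested. The cystatin gene Cstdc4 fell by 8.25. Apol11a and Apol11b are similar in sequence and may share reads.

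The rule passed over 11 predicted genes with larger or similar decreases, and all 11 lie in 2 short stretches of the table, 9 on chromosome 9 between 3000922 and 3038316 and 2 on chromosome 2 between 98492582 and 98497646. These stretches were picked out after their values were seen. As background, both are known to hold copies of the mouse major satellite repeat of centromeric DNA. Gm10800 on chromosome 2 had 962470, 621830, 691820 and 445420 normalised counts in whole marrow and 2270, 0, 0 and 1.6 in lineage-negative marrow. Gm10718 on chromosome 9 had 123930, 71742, 72572 and 54703 in whole marrow, and it was listed at 0 in lineage-negative replicates 2, 3 and 4 and at 485.8 in replicate 1. Together the 11 genes took 7.54%, 4.57%, 5.13% and 3.44% of the whole marrow totals, against 0.0230% in lineage-negative replicate 1, 1.07e-05% in replicate 4 and 0 in replicates 2 and 3. The order of the 4 whole marrow libraries was the same as for the receptor genes, with replicate 1 highest, then 3, 2 and 4. The part of reads from repeats or from genomic DNA in these values was not tested, and without the 11 genes the counts were 2095 higher and 3445 lower.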

How the data were processed

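Bulk RNA sequencing of 4 whole and 4 lineage-negative wild-type marrow samples was used. Total RNA was extracted with TRIzol and made into TruSeq Stranded Total RNA libraries, per the labels' protocols. The submitters' processing notes name STAR, Partek, DESeq2 and mm10, without versions or roles, and the strand used in counting is not given in the sources used here. The deposited values are a signal: normalized counts, made by the authors with the tools above, per the labels. Their values behave as reads divided by 1 factor per library. They are not whole, and 84.7% to 88.2% of low values were whole multiples of the value of 1 read within 0.02, so no count test was run. Depth is an estimate from that step, and its error covers counting only.

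Protein-coding genes with a value of at least 10 in at least 4 of 15 columns were rescaled by TMM, written in R 4.3.3, and tested with limma 3.58.1 (mean-variance trend) on log2(value + 1). Calls needed an adjusted p under 0.05 and an absolute difference of at least 1. Library measures were tested by exact permutation over 70 splits, whose smallest p is 0.0286. On simulated data with 14149 genes and 200 changed, 199 were recovered and 4 unchanged genes were called. Few genes changed there and no background was added, while 39.3% of genes were called in the real data. The simulation therefore does not measure the error of the calls made here. Named genes were the 12 top increases and the 12 top decreases among calls with a mean of at least 100, non-overlapping groups and no predicted symbol, and 2 to 4 or more members of each of 29 gene lists. The members and lists were chosen with earlier results of these data known, and 47 genes were in more than 1 list. The replicate numbers of both groups were compared, and same-numbered deviations correlated at 0.11, 0.18, 0.02 and −0.01. The labels do not say whether same-numbered samples are paired, and correlations this weak cannot decide it. The main test treated the samples as unpaired. Alternatives covered scaling, pseudocount, filter, background, the samples fitted, the test, the block and each library left out. RefSeq promoter windows on GRCm38.p6 matched 11194 of 14137 tested symbols. Table coordinates differ from that build and are given as in the table.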

Additional observations from a re-analysis of the deposited data

Results flagged for a closer look

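In 390 groups of 4 libraries, those of each named gene and library measure, 24 held a library far from the other 3, by the gap to the nearest library as a share of the range (Dixon's 95% critical value). Chance flags about 1 in 20 groups.

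Lineage-negative replicate 1 stood out in several library measures and genes. Its hemoglobin share was 0.203%, against at most 0.0345% in the others, and its mitochondrial share was 1.71%, against at least 3.94%. It had 2386 normalised counts of Tfrc, against at least 5051, and 1312 of Xbp1, against at least 1934. It also had 485.8 of Gm10718 and 2270 of Gm10800, against 0 and at most 1.6 in the others.

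Other lineage-negative libraries stood apart in single genes. Replicate 3 had 835 of Ctsc, against at least 1101. Replicate 2 had 9.67 of Il1b, against at least 33.2, and replicate 4 had 19.2 of Rag1, against at least 34.7. Replicate 4 had 1.6 of Batf3, against at least 2.76. Under the floor of 3 reads, Apol11a and Stfa1 were at 0.738 in replicate 3 and Stfa3 at 0.533 in replicate 4, with 0 in the others.

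Among whole marrow libraries, replicate 2 had 4432 of Ly6g against at most 2721, 220 of Stfa1 against at most 103.5, 2829 of Cebpe against at most 2191 and 1153 of Il1rn against at most 923. Its Ciita, 400.4, was low beside at least 520.7 in the others, and its mitochondrial share was 1.87% against at most 1.72%. Replicate 1 had a mean of 25.4 over the receptor genes, against at most 9.88, with 60.7 of Col1a1 against at most 52.1 and 25.3 of Plvap against at least 38.7. Replicate 4 had 14.9 of Gzmb against at least 38.1 and 1187 of Irf4 against at most 780.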

How the results depend on the processing

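With the values as deposited 5308 genes were higher. Without a filter 7336 were lower, and with a mean of at least 50 over the 8 libraries 1666 were lower. The other alternatives kept both counts within 1.5 times 2102 and 3452. Leaving out each library gave 1861 to 2122 higher and 3377 to 3604 lower, and the differences ranged from −8.92 to −7.78 percentage points for the hemoglobin share and from −14.7 to −9.47 for the receptor mean. With the replicate number as a block, 2112 genes were higher and 3455 lower, and the call of Epx was gained. Of 153 called genes named here, 132 kept direction and call in every alternative that tested them. Genes removed by the filter of an alternative, such as a mean of at least 50, were not scored there. Over 189 genes and 28 alternatives, a call was lost 80 times and gained 35 times. With the values as deposited the calls of Batf3 (−0.80), Cd5 (−0.565), Ly6c2 (−0.425), Ccr2 (−0.97), Ctsc (−0.71), Cxcr4 (−0.47), Hdc (−0.57), Spi1 (−0.63), Tfrc (−0.725), Ube2c (−0.675) and Zap70 (−0.90) were lost, and those of Dntt (1.03), Elane (1.32), Fos (1.55), Gata1 (1.08), Gzmb (1.496), Irf8 (1.22), Lat (1.37), Mcm2 (1.40), Nkg7 (1.54), Nr4a1 (1.15) and Procr (1.95) were gained. A direction reversed in 47 pairs of gene and alternative. The cause was not tested. Leaving out single libraries moved Col1a1 between −1.02 and 1.58 and Ly6c1 between −0.54 and 0.14. With TMM factors over all 15 columns, reversed differences were Apoe at −0.044 and Col1a1 at −0.011. With the receptor mean subtracted, reversed differences were Apoe at −0.037, Batf3 at 0.98 and Ly6c1 at 1.89. With all 15 libraries in the fit, reversed differences were Apoe at −0.044 and Col1a1 at −0.011. Without lineage-negative replicate 2, reversed differences were Apoe at −0.023, Cd48 at −0.14, Col1a1 at −1.02 and Pf4 at −0.064. Without lineage-negative replicate 4, reversed differences were Apoe at −0.002, Clec9a at −0.13 and Col1a1 at −0.79. With the receptor median per kilobase subtracted, reversed differences were Apoe at −0.076, Cd48 at −0.028, Ly6c1 at 1.16 and Slamf1 at 0.16. With quantile normalization, reversed differences were Batf3 at 1.25, F13a1 at 0.10, Ly6c1 at 1.71, Mki67 at 0.54 and Slamf1 at 0.22. With a pseudocount of 0.1, the reversed difference was Col1a1 at −0.049. With array quality weights, the reversed difference was Col1a1 at −1.55. With the values as deposited, reversed differences were Csf1r at 0.37, Epor at 0.48, F13a1 at 0.53, H2-Oa at 0.39, Junb at 0.28, Klf4 at 0.16, Klf1 at 0.30, Ly6c1 at 0.42, Ly86 at 0.38, Odc1 at 0.26, Slamf1 at 0.25, Tal1 at 0.31 and Xbp1 at 0.088. With TMM factors from all genes, reversed differences were Epor at 0.046, F13a1 at 0.10 and Ly6c1 at 0.039. Without lineage-negative replicate 1, reversed differences were Ly6c1 at 0.034 and Lyl1 at −0.073. Without whole marrow replicate 2, the reversed difference was Ly6c1 at 0.14. Without whole marrow replicate 3, the reversed difference was Ly6c1 at 0.004. Without both libraries numbered 1, reversed differences were Ly6c1 at 0.038 and Lyl1 at −0.14. In whole marrow 3 reads corresponded to 3.46 to 5.06 normalised counts, and to 1.6 to 2.21 in lineage-negative marrow, so lower values are at the limit of detection.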

Other observations

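Calls depended on the level of a gene. The tested genes were put in 5 equal bins by mean over 8 libraries. In the lowest bin, up to 38.3 normalised counts, 6.25% were called higher and 58.3% lower, with a median difference of −1.67. In the next bin, up to 221 normalised counts, the shares were 21.7% and 21.8%, with a median of 0.24. Among genes sorted by the length of their locus, the longest of 5 bins held 11.5% higher and 32.6% lower calls, and the shortest 18.1% and 21.6%. Of the 2102 higher calls, 184 (8.75%) had a whole marrow level at or below the receptor background.

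Lineage-negative replicate 1 also differed in structural noncoding RNAs, a class of Rn7sk, Rmrp, small nuclear and nucleolar RNAs and ribosomal RNAs. They made up 12.9% of its total against 7.15% to 8.50% in the other lineage-negative libraries and 8.02% to 10.1% in whole marrow. Any mitochondrial ribosomal RNA counts here and in the mitochondrial share. The 20 most abundant genes took 12.4% to 17.4% of lineage-negative totals and 27.4% to 29.8% of whole marrow totals.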
